A study of Mus musculus with 48 samples.

Results

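The EGF family genes described here are 7 ligands, Egf, Tgfa, Areg, Ereg, Hbegf, Btc and Epgn, and 3 receptors, Egfr, Erbb2 and Erbb3. They were chosen by gene symbol, and all 10 were found among the 46983 genes of both deposited expression tables. RNA of whole skin of C57BL/6 mice had been sequenced from 3 body domains (chin, ventral and dorsal) at 6 stages of the hair cycle, which gave 18 groups of 2 or 3 libraries and 43 libraries in all. The stages were the resting phase that can respond to growth signals (competent telogen), the growth phase (early, mid and late anagen), regression (catagen) and the following rest that cannot respond (refractory telogen). A second table of 7 libraries held 2 of telogen ear skin, 3 of the cartilage/muscle complex of the ear and the 2 dorsal libraries labelled competent telogen, whose values were the same in both tables, so that 48 libraries were distinct. No treatment or mutation was labelled in any group. The labels name neither the age nor the number of mice behind a library, so that the p-values measure only the spread between these libraries, which may be technical. Levels are FPKM, fragments scaled by transcript length and library size, and can be compared between genes. Differences were tested with limma on log2(FPKM + 1), over every gene that reached 0.5 FPKM in 2 or more libraries, and a gene was called at an adjusted p under 0.05. All 10 genes passed this filter in both tables.

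EGF family ligands are made as membrane-anchored precursors that are cut free by metalloproteases and bind receptor tyrosine kinases of the ErbB family on the same or neighbouring cells. Egf, Tgfa, Areg and Epgn bind the EGF receptor Egfr, whereas Btc, Hbegf and Ereg also bind Erbb4. Erbb2 has no known ligand and acts as the partner of the other receptors, and Erbb3, a receptor for neuregulins, signals through such partners because its own kinase is weak. In skin the family is known for keratinocyte proliferation and migration, and loss of Tgfa or of Egfr activity gives mice with wavy hair.

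Of the ligands, 4 lie next to each other on chromosome 5 and have no other protein-coding gene between them, within 375531 bases of mouse build GRCm38 (mm10). These are Epgn at chr5:91027464-91035215 and Ereg at chr5:91074622-91093646, then Areg at chr5:91139599-91148432, all on the plus strand, and Btc at chr5:91357261-91402994 on the minus strand. Tgfa is at chr6:86195223-86275719 on the plus strand and Egf at chr3:129677565-129755316 on the minus strand. Among the receptors, Egfr is at chr11:16752203-16918158 and Erbb2 at chr11:98412470-98437716, both on the plus strand, and Erbb3 at chr10:128567523-128589652 on the minus strand. The libraries did not mark strand, and exons of antisense or unclassified genes cover 607 and 500 bases of Egf exons (Gm42697 and 6330410L21Rik), 118 bases of Tgfa (Gm43917) and 141 bases of Ereg (Gm19610), so that reads there could not be told apart. The overlap of Erbb2 exons with Mien1 was 9 bases.

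RefSeq promoter windows (GRCm38.p6) were at hand for 7 of the 10 genes. Since Epgn, Areg and Btc are neighbours that moved differently in skin, the 250 bases before the RefSeq start of each are shown. The bases run 5′ to 3′ on the strand of the gene, with capitals for matches to the motifs searched on both strands. These were TATAAA (the TATA box), GGGCGG (the GC box) and TGANTCA (the letters bound by AP-1 factors). The RefSeq start of Epgn lies within the gene as placed above, so that the end of its window overlaps that gene.
Epgn, chr5:91027267-91027516, plus strand: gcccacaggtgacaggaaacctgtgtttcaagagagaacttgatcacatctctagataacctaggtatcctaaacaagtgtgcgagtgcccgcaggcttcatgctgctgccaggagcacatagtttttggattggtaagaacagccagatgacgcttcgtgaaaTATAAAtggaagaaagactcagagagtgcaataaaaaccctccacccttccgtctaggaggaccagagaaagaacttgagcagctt
Areg, chr5:91139349-91139598, plus strand: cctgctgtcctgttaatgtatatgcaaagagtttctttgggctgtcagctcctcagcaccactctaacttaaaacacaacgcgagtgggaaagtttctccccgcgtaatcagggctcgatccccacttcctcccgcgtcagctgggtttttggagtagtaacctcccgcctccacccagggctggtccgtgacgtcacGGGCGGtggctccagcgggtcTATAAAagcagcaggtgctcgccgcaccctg
Btc, chr5:91402995-91403244, minus strand: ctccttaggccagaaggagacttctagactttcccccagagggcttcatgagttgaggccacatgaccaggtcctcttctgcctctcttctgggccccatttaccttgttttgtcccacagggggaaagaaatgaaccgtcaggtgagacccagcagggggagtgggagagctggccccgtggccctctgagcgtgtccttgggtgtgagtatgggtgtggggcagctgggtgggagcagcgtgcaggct
TATAAA was present in the Epgn and Areg windows and in 12.4% of the 32851 windows of this length, GGGCGG was present in the Areg window and in 32.7% of all, and TGANTCA was in none of these windows and in 6.75% of all. The Btc window held none of these letters. The other windows at hand were those of Tgfa, with GGGCGG at 2 places, Egfr, with GGGCGG at 1 place, and Erbb2 and Egf, with no match. A match is a run of letters and no measured binding site.

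Some libraries stood apart from their labels, and the F-tests over stages and domains are given with and without these groups, while a level or step of such a group has no value without it. The 2 libraries labelled dorsal competent telogen differed from the 2 labelled chin late anagen in 2 of 21257 genes tested (387 genes at an unadjusted p under 0.05), their median absolute log2 difference was 0.096 against 0.106 between the chin late anagen libraries themselves, and limma called none of the 10 EGF family genes between them (adjusted p = 1 for each). The summed level of 7 inner root sheath markers, which mark growing follicles, was 21870 to 22150 FPKM in dorsal competent telogen and 21160 to 22420 FPKM in chin late anagen, whereas telogen ear skin had 299.5 to 306.2 FPKM. In ventral early anagen the same sum was the lowest of the 18 groups, at 4542 to 4881 FPKM, and the proliferation gene Mki67 was at 1.39 to 1.42 FPKM, whereas dorsal catagen had the highest Mki67, at 22.84 and 23.03 FPKM. Ventral and dorsal refractory telogen held 15670 to 18110 FPKM of the inner root sheath sum, also far over telogen ear skin. Their labels were followed, and the F-tests are not given without these refractory telogen groups. Ventral catagen replicate 1 carries a location label of the ear that its title contradicts. Without it the calls of Ereg (adjusted p = 0.138) and Hbegf (adjusted p = 0.074) from ventral catagen to refractory telogen and of Epgn between dorsal and ventral catagen (adjusted p = 0.0609) were lost, and no other call on the 10 genes changed. Chin refractory telogen replicate 2 held 2020 FPKM of 9 salivary gland markers in sum, and the lowest of the other libraries of that group had 18.1 FPKM. Estimated depth was 6750000 to 28200000 fragments per library, at which 1 fragment was worth at most 0.12 FPKM in any of the 10 genes. In whole tissue, fewer cells of a type and less RNA per cell cannot be told apart.

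Tgfa and Btc made up most of the ligand RNA in skin. By group mean 1 of them was the highest ligand in each of the 18 groups. Tgfa had a range of 10.76 to 57.18 FPKM over the 43 skin libraries and a median of 26.18 FPKM, and Btc ranged from 8.58 to 59.03 FPKM with a median of 22.32 FPKM. Hbegf had a median of 11.74 FPKM, Areg of 8.33 FPKM, Epgn of 5.01 FPKM and Ereg of 3.61 FPKM. Egf, the founding ligand of the family, was the lowest, with 0.07 to 2.12 FPKM and a median of 0.63 FPKM. The 7 ligands together were lowest in ventral mid anagen (54.4 ± 2.12 FPKM, SD, n = 2) and highest in dorsal refractory telogen (132 ± 9.68 FPKM, SD, n = 2). Among the receptors, Erbb2 had a median of 14.72 FPKM, Egfr of 10.51 FPKM and Erbb3 of 9.03 FPKM, whereas Erbb4 did not exceed 0.14 FPKM in any skin library.

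**Figure D1:**
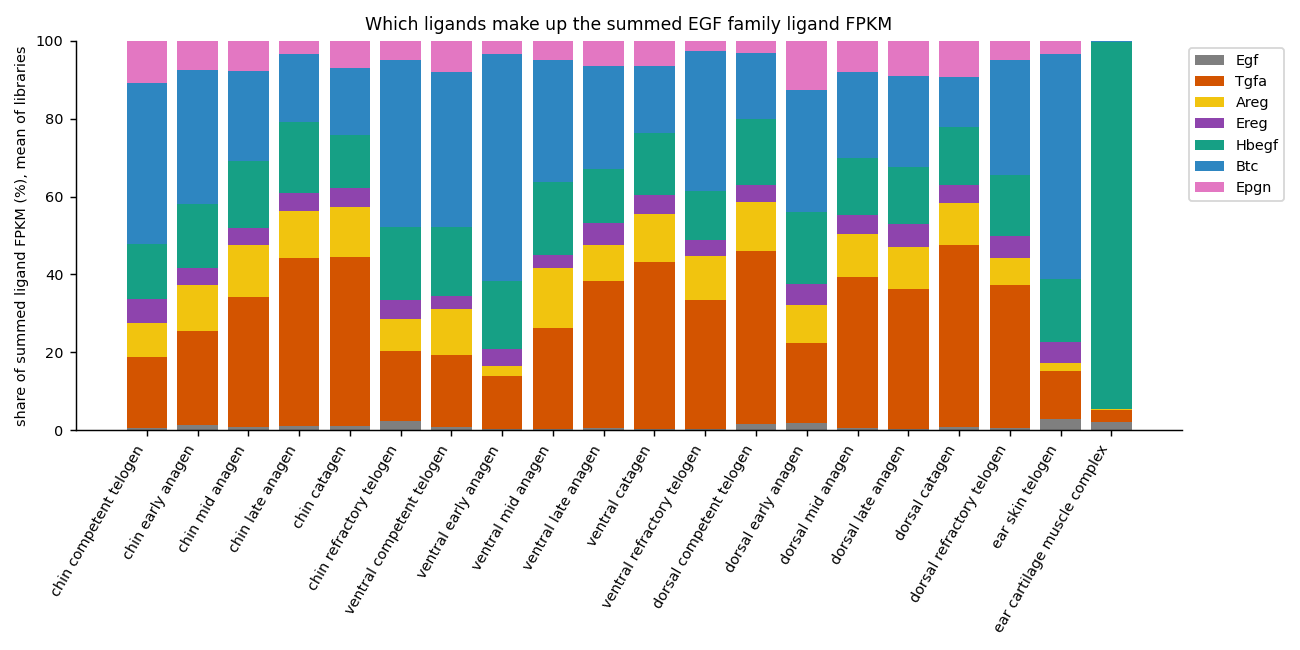
Share of each ligand in the summed FPKM of the 7 ligands, in percent on the y axis, as the mean of the libraries of each group on the x axis; the last 2 bars come from the ear table. Btc made up 58.1% in ventral early anagen and 57.7% in ear skin, Tgfa 46.8% in dorsal catagen, and Hbegf 94.1% in the ear cartilage/muscle complex.

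The shares of Btc and Tgfa varied most. Btc made up 58.1% of the ligand sum in ventral early anagen, 42.8% in chin refractory telogen and 41.3% in chin competent telogen, but 17.3% in both chin and ventral catagen and 12.8% in dorsal catagen. Tgfa made up 13.8% in ventral early anagen and 18.1% in chin refractory telogen, but 43.3%, 42.8% and 46.8% in chin, ventral and dorsal catagen. Over the 18 groups Hbegf made up 12.4% to 18.8%, Areg 2.54% to 15.4%, Epgn 2.72% to 12.6%, Ereg 3.30% to 6.22% and Egf 0.257% to 2.27%.

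The question of which genes change with the hair cycle was put to each domain by an F-test over the 6 stages. In chin skin 9 of the 10 genes changed, where 66.2% of all genes were called, and over the alternatives tried this count was 7 to 10. In ventral skin 9 changed (70.2% of all genes), and in dorsal skin 9 changed (68.5% of all genes). The alternatives gave 8 to 9 in both. The exceptions were Areg in chin (adjusted p = 0.0855) and dorsal skin (adjusted p = 0.61), and Egf in ventral skin (adjusted p = 0.142). Without the dorsal competent telogen libraries Epgn no longer changed in dorsal skin (adjusted p = 0.275), and without the chin late anagen libraries Egfr no longer changed in chin skin (adjusted p = 0.128). The stage profile differed between domains for 10 of 10 genes, where 73.3% of all genes had such an interaction. The count was also 10 without each of these groups in turn, namely chin late anagen, dorsal competent telogen, ventral early anagen and dorsal catagen. Over all alternatives it was 9 to 10.

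**Figure D2:**
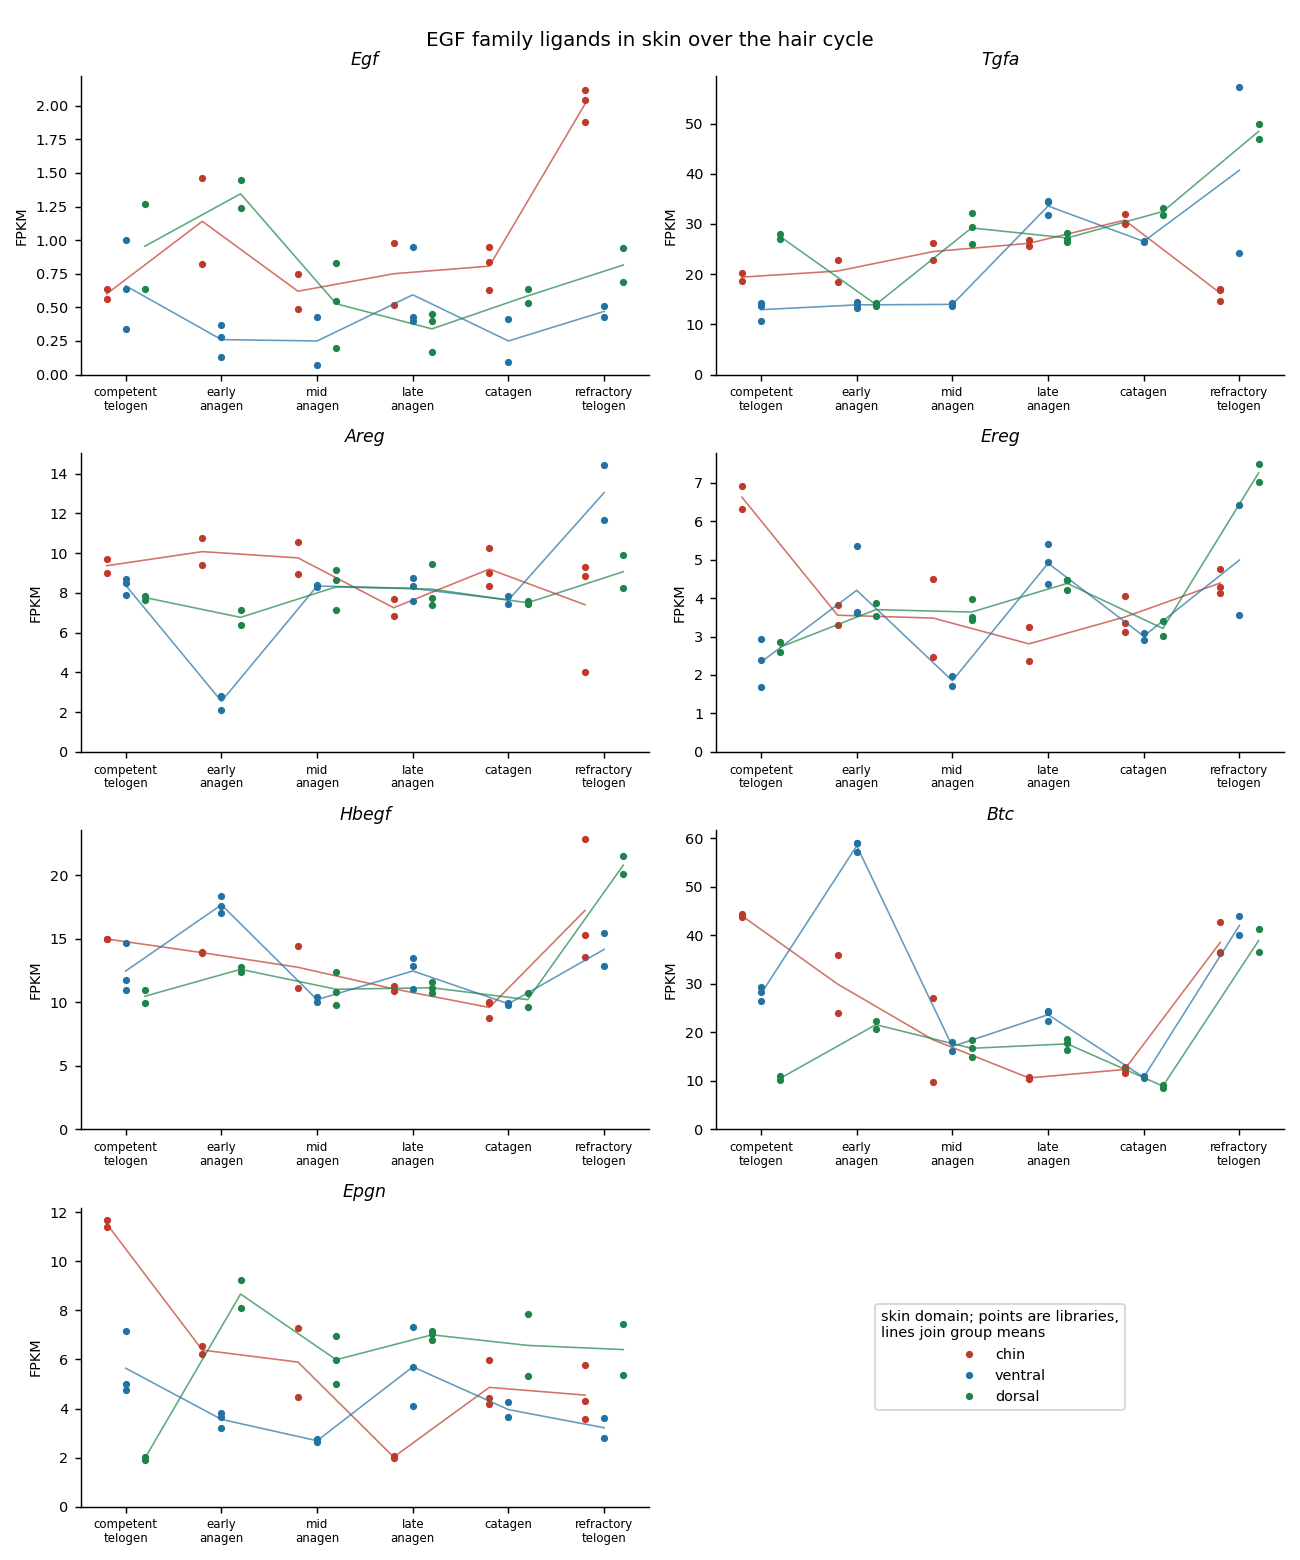
FPKM of the 7 ligands (y axis, from 0, a scale for each gene) over the 6 stages (x axis) in chin, ventral and dorsal skin; points are libraries and lines join group means. Btc rose from catagen to refractory telogen in each domain, and Areg was lowest in the 3 ventral early anagen libraries, at 2.09 to 2.80 FPKM. The group mean of Tgfa was highest in dorsal refractory telogen, and the 2 ventral refractory telogen libraries were at 57.18 and 24.21 FPKM.

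Among the ligands that also bind Erbb4, Btc (betacellulin) had the widest range. It was highest in ventral early anagen, at 59.03, 58.97 and 57.2 FPKM, and all 3 of these libraries lay above every other skin library. From ventral competent telogen, at 26.34, 28.23 and 29.22 FPKM, to early anagen Btc rose by 1.04 on the log2 scale (SE 0.18, adjusted p = 2.47e-05). It then fell by 1.72 (SE 0.20, adjusted p = 5.44e-08) to 18.01 and 16.1 FPKM in mid anagen. In these ventral early anagen libraries the basal keratinocyte marker sum was 7929 to 8204 FPKM, the highest of the 18 groups, and the part of this in the Btc level was not tested. Btc was low in catagen, with 11.68 to 12.78 FPKM in chin, 10.47 and 10.9 FPKM in ventral and 8.58 and 9.18 FPKM in dorsal skin. In refractory telogen it was at 36.32 to 42.75 FPKM in chin, 40.04 and 43.96 FPKM in ventral and 36.48 and 41.23 FPKM in dorsal skin, so that the stages did not overlap in any domain. In competent telogen the domains were ordered, with 44.27 and 43.67 FPKM in chin, the ventral values given above, and 10.88 and 10.1 FPKM in the dorsal libraries that resemble chin late anagen. Chin exceeded ventral skin there by 0.64 (SE 0.20, adjusted p = 0.0204), a call that was lost without either chin library or ventral replicate 1 (adjusted p up to 0.106). In refractory telogen Btc was the 1 gene of the 10 that was not called between domains (adjusted p = 0.884), with group means of 38.5 to 42.0 FPKM.

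Hbegf (heparin-binding EGF-like growth factor) varied less. Its group mean was highest in dorsal refractory telogen, at 21.52 and 20.06 FPKM, and lowest in chin catagen, at 8.78, 9.96 and 10.02 FPKM, although chin refractory telogen replicate 2, the library with the salivary markers, held 22.82 FPKM beside 15.29 and 13.58 FPKM in the others. Like Btc it was raised in ventral early anagen, at 18.38, 17.61 and 17.02 FPKM, against 11.74, 14.67 and 10.98 FPKM in ventral competent telogen (log2 difference 0.48, SE 0.12, adjusted p = 0.00242). The 18 group means of Hbegf and Btc on the log2 scale had a Pearson r of 0.87, given as a description of genes measured in the same libraries.

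Ereg (epiregulin) was low, between 1.68 and 7.48 FPKM. It was highest in dorsal refractory telogen, at 7.48 and 7.03 FPKM, followed by chin competent telogen, at 6.92 and 6.33 FPKM. In ventral skin it went up and down with successive stages, from 1.68, 2.93 and 2.4 FPKM in competent telogen to 5.35, 3.61 and 3.65 FPKM in early anagen (log2 difference 0.64, adjusted p = 0.00164). It then fell to 1.98 and 1.72 FPKM in mid anagen (adjusted p = 0.000279) and rose to 5.4, 4.95 and 4.37 FPKM in late anagen (log2 difference 1.05, SE 0.18, adjusted p = 6.85e-05). The groups did not overlap in any of these 3 steps.

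Tgfa (transforming growth factor alpha), a ligand of Egfr alone, followed another course. Dorsal refractory telogen had 49.95 and 46.88 FPKM, and ventral refractory telogen 57.18 and 24.21 FPKM, so that the 2 ventral libraries disagreed by more than the dorsal and ventral means. Chin refractory telogen was low, at 14.75, 16.92 and 16.95 FPKM. From catagen to refractory telogen Tgfa fell in chin skin by 0.89 on the log2 scale (SE 0.16, adjusted p = 2.69e-05), from 32.04, 30.05 and 30.16 FPKM. It rose in dorsal skin by 0.56 (SE 0.19, adjusted p = 0.0187), from 33.12 and 31.84 FPKM, a call that was lost without either dorsal catagen library or refractory telogen replicate 1 (adjusted p up to 0.099). In ventral skin Tgfa was 10.76 to 14.39 FPKM in all 8 libraries of competent telogen, early anagen and mid anagen, and then 34.44, 31.76 and 34.51 FPKM in late anagen (log2 difference 1.21, SE 0.18, adjusted p = 9.62e-06). Refractory exceeded competent telogen in ventral skin by 1.47 (adjusted p = 9.81e-08), and this call held without each library in turn. In dorsal early anagen Tgfa was 14.35 and 13.58 FPKM, below 26.97 and 28.0 FPKM in the libraries labelled competent telogen (adjusted p = 0.000268) and below 32.12, 29.47 and 26.04 FPKM in mid anagen (log2 difference 1.009, adjusted p = 3.88e-05). The mid anagen comparison does not use the doubted libraries.

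Areg (amphiregulin), also a ligand of Egfr, was nearly level apart from ventral skin. Group means in chin and dorsal skin were 6.77 to 10.1 FPKM, and 1 chin refractory telogen library was at 4.03 FPKM. In ventral skin the early anagen libraries held 2.09, 2.8 and 2.75 FPKM, below all other skin libraries, against 7.92, 8.71 and 8.52 FPKM in competent telogen (log2 difference -1.41, SE 0.16, adjusted p = 4.86e-08) and 8.42 and 8.28 FPKM in mid anagen (log2 difference 1.40, SE 0.18, adjusted p = 3.47e-07). Areg thus fell in the same 3 libraries in which Btc and Hbegf rose. Ventral refractory telogen had the highest group mean of Areg, with 11.68 and 14.42 FPKM, above ventral catagen at 7.84 and 7.45 FPKM (log2 difference 0.69, adjusted p = 0.00775). Without ventral refractory telogen replicate 2 that call was lost (adjusted p = 0.0886).

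Epgn (epigen) was highest in chin competent telogen, at 11.39 and 11.7 FPKM, above every other group. It was lowest in dorsal competent telogen, at 2.03 and 1.91 FPKM, and chin late anagen, at 2.07 and 1.97 FPKM, the groups between which 2 genes were called. The rise from dorsal competent telogen to early anagen, at 8.11 and 9.23 FPKM, was 1.70 on the log2 scale (SE 0.22, adjusted p = 3.64e-07). Over the other 5 dorsal stages group means were 5.99 to 8.67 FPKM and did not change by the F-test given above. In chin skin Epgn was 6.55 and 6.22 FPKM in early anagen and 4.41, 4.19 and 5.99 FPKM in catagen, and competent exceeded refractory telogen by 1.197 on the log2 scale (SE 0.20, adjusted p = 1.77e-05), a comparison that does not use late anagen.

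Egf was under 1 FPKM in most groups but was never at 0 in skin. Chin refractory telogen held 2.12, 1.88 and 2.04 FPKM, above all other skin libraries, and exceeded chin catagen, at 0.63, 0.84 and 0.95 FPKM, by 0.74 on the log2 scale (SE 0.17, adjusted p = 0.000692). The skeletal muscle marker sum was also highest there, at 7907 to 12320 FPKM, and the 3 genes whose 18 group means were most like those of Egf were Scn4b (r = 0.91), Art5 (r = 0.89) and Rapsn (r = 0.87), of which Rapsn clusters acetylcholine receptors at the nerve-muscle junction. The part of muscle in the Egf level was not tested. The salivary marker sum was also higher in this group, at 18.1 to 2020 FPKM, than in the other chin groups, where it reached 8.36 FPKM, and Egf was 1.88 FPKM in the library with the highest sum. The part of salivary tissue was not tested either.

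**Figure D3:**
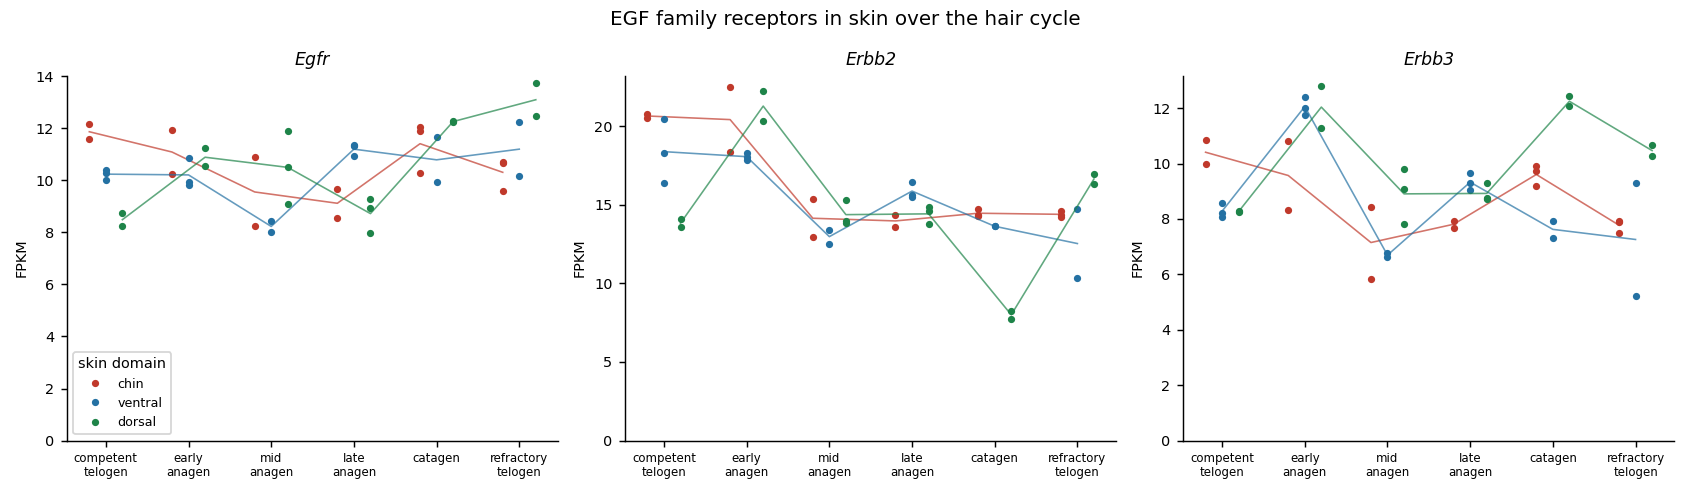
FPKM of the 3 receptors (y axis, from 0) over the 6 stages (x axis) in chin, ventral and dorsal skin; points are libraries and lines join group means. Egfr stayed between 7.96 and 13.73 FPKM, and Erbb2 dropped to 7.76 and 8.25 FPKM in dorsal catagen, where Erbb3 was high.

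Egfr and Erbb3 varied least of the 10 genes. The highest group mean exceeded the lowest by 1.59-fold for Egfr, 1.83-fold for Erbb3 and 2.66-fold for Erbb2, against 2.17-fold for Hbegf and 8.05-fold for Egf. Egfr, the receptor for all 7 ligands, was highest in dorsal refractory telogen, at 13.73 and 12.46 FPKM, and in dorsal catagen, at 12.27 and 12.25 FPKM, and lowest in ventral mid anagen, at 8.03 and 8.43 FPKM. In dorsal skin it rose from late anagen, at 8.94, 9.27 and 7.96 FPKM, to catagen by 0.45 on the log2 scale (SE 0.10, adjusted p = 0.000945). A rise of Egfr in dorsal skin from competent telogen to early anagen (log2 difference 0.33, adjusted p = 0.0224) depended on the scaling: the median gene rose by 0.25 in that step, and scaling by the median of ratios left -0.03 for Egfr.

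Erbb2 was lowest in dorsal catagen, at 8.25 and 7.76 FPKM, below every other skin library. It fell into that stage from 14.85, 14.64 and 13.8 FPKM in late anagen by 0.78 on the log2 scale (SE 0.10, adjusted p = 1.94e-07) and rose to 16.96 and 16.34 FPKM in refractory telogen (log2 difference 0.97, SE 0.11, adjusted p = 1.46e-08). Chin catagen, at 14.74, 14.3 and 14.37 FPKM, and ventral catagen, at 13.64 and 13.63 FPKM, showed no such dip, and dorsal catagen lay below both (log2 difference from chin -0.78, adjusted p = 1.51e-07, and from ventral skin -0.70, adjusted p = 5.47e-06). Erbb3 moved the other way, with 12.07 and 12.43 FPKM in dorsal catagen, above 7.93 and 7.32 FPKM in ventral catagen (log2 difference 0.62, SE 0.15, adjusted p = 0.00117). Against chin catagen, at 9.18, 9.91 and 9.73 FPKM, the difference of Erbb3 was 0.32 (SE 0.13) and was not called (adjusted p = 0.0537), and its rise from dorsal late anagen (log2 difference 0.42, adjusted p = 0.013) was lost without either dorsal catagen library and after rescaling to TPM (adjusted p up to 0.0847). The share of Erbb2 in the sum of the 3 receptors was 23.9% to 25.3% in dorsal catagen and at least 39.4% in every other skin library. The basal keratinocyte marker sum of the dorsal catagen libraries was 1786 to 1842 FPKM, the lowest of the 18 groups, and Mki67 the highest, and their part in the receptor levels was not tested.

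Erbb2 was high in early anagen and in the competent telogen of chin and ventral skin. It was 22.26 and 20.31 FPKM in dorsal early anagen, 22.48 and 18.38 FPKM in chin early anagen, 18.29, 17.85 and 18.06 FPKM in ventral early anagen, 20.56 and 20.76 FPKM in chin competent telogen, and 20.46, 18.31 and 16.4 FPKM in ventral competent telogen. From early to mid anagen it fell in chin (by 0.50, adjusted p = 0.00163), ventral (by 0.45, adjusted p = 0.000418) and dorsal skin (by 0.53, adjusted p = 6.69e-05). The dorsal and ventral calls held under every alternative tried, and the chin call was lost without chin early anagen replicate 1 (adjusted p = 0.0625). Erbb3 fell in the same step in ventral skin, from 12.01, 12.41 and 11.75 FPKM to 6.61 and 6.78 FPKM (log2 difference -0.76, SE 0.13, adjusted p = 2.9e-05). Both ventral falls use ventral early anagen, a doubted group, and have no value without it.

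**Figure D4:**
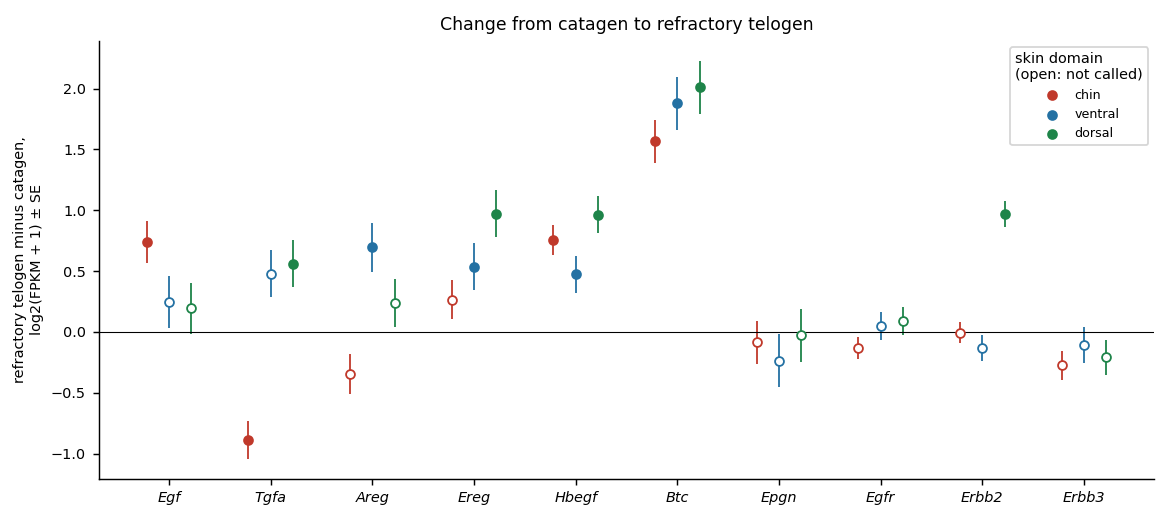
Change from catagen to refractory telogen as the difference of mean log2(FPKM + 1), with SE (y axis), for the 10 genes (x axis) in chin, ventral and dorsal skin; filled points were called and open points were not. Btc and Hbegf rose in all 3 domains, whereas Tgfa fell in chin and rose in dorsal skin.

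From catagen to refractory telogen, by label the step from regression to unresponsive rest, Btc and Hbegf rose in all 3 domains. Markers given above stood apart from these labels. The inner root sheath sum in ventral and dorsal refractory telogen was far over that of telogen ear skin, and Mki67 was highest in dorsal catagen. The part of this in the changes was not tested. In chin skin 3 of the 10 genes rose, Egf, Hbegf and Btc (30.5% of all genes rose), and 1 fell, Tgfa (17.5% of all genes fell). In ventral skin 4 rose, Areg, Ereg, Hbegf and Btc (14.9% of all genes), and none fell (18.8% of all genes). In dorsal skin 5 rose, Tgfa, Ereg, Hbegf, Btc and Erbb2 (19.1% of all genes), and none fell (24.5% of all genes). Btc rose by 1.57 (SE 0.18, adjusted p = 2.33e-08) in chin, 1.88 (SE 0.22, adjusted p = 1.2e-07) in ventral and 2.01 (SE 0.22, adjusted p = 1.28e-08) in dorsal skin. Hbegf rose by 0.75 (SE 0.12, adjusted p = 1.01e-05), 0.47 (SE 0.15, adjusted p = 0.0171) and 0.96 (SE 0.15, adjusted p = 6.72e-06). The Btc calls and those of Hbegf in chin and dorsal skin held under every alternative and without each library, although without chin refractory telogen replicate 2 the chin rise of Hbegf was 0.54 (adjusted p = 0.00015). Hbegf in ventral skin lost its call without either catagen library or refractory telogen replicate 2 (adjusted p up to 0.164). The basal keratinocyte marker sum was 4693 to 5908 FPKM in the refractory telogen libraries, against group means of 3348, 2681 and 1814 FPKM in chin, ventral and dorsal catagen, and its part was not tested. Ereg in ventral skin (log2 difference 0.54, adjusted p = 0.0345) lost its call without either catagen library or refractory telogen replicate 1 (adjusted p up to 0.561 over all alternatives). Without the dorsal catagen libraries no dorsal value of this step can be had.

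Differences among the 3 domains were tested at each stage. At competent telogen 7 genes differed (54.0% of all genes) and at early anagen 6 did (51.6%). In mid anagen the count was 3 (38.1%) and in late anagen 4 (20.8%). Catagen had 2 genes (42.9%), and in refractory telogen 9 differed (42.2%). Without the doubted group, the comparison is between the other two domains. At competent telogen it then held 4 genes, Tgfa, Ereg, Btc and Epgn, all higher in chin than in ventral skin, and the pairwise call of Tgfa was lost without either chin library, without ventral replicate 3 and after rescaling to TPM (adjusted p up to 0.144). At late anagen without chin, at early anagen without ventral skin and at catagen without dorsal skin, limma called 0 of the 10, and 2 genes in each had an unadjusted p under 0.05, namely Btc and Egfr, Tgfa and Areg, and Egf and Erbb3.

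At refractory telogen Tgfa had the largest differences. The inner root sheath sum was 15670 to 18110 FPKM in its ventral and dorsal libraries and 5816 to 8546 FPKM in chin, and its part was not tested. Ventral skin exceeded chin skin in Tgfa by 1.16 (SE 0.18, adjusted p = 9.55e-06) and dorsal skin exceeded it by 1.52 (SE 0.18, adjusted p = 7.41e-08). Without ventral replicate 1, the library at 57.18 FPKM, the ventral difference was 0.55 (adjusted p = 0.000592), and in a fit on that stage alone it was not called (adjusted p = 0.0594). Egf went the other way and was lower in ventral (log2 difference -1.04, SE 0.19, adjusted p = 0.000142) and dorsal skin (log2 difference -0.73, SE 0.19, adjusted p = 0.00341) than in chin, and the dorsal call was lost without dorsal replicate 2 and with a pseudocount of 0.1 (adjusted p up to 0.0636). Ereg was 7.48 and 7.03 FPKM in dorsal and 4.13, 4.75 and 4.3 FPKM in chin skin (log2 difference 0.62, adjusted p = 0.00758), a call that was lost without dorsal replicate 1 and in the fit on that stage alone (adjusted p up to 0.0871). The count of 9 fell to 5 without dorsal refractory telogen replicate 2, to 3 without replicate 1, and to 2 in a fit on the 7 libraries of that stage alone.

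**Figure D5:**
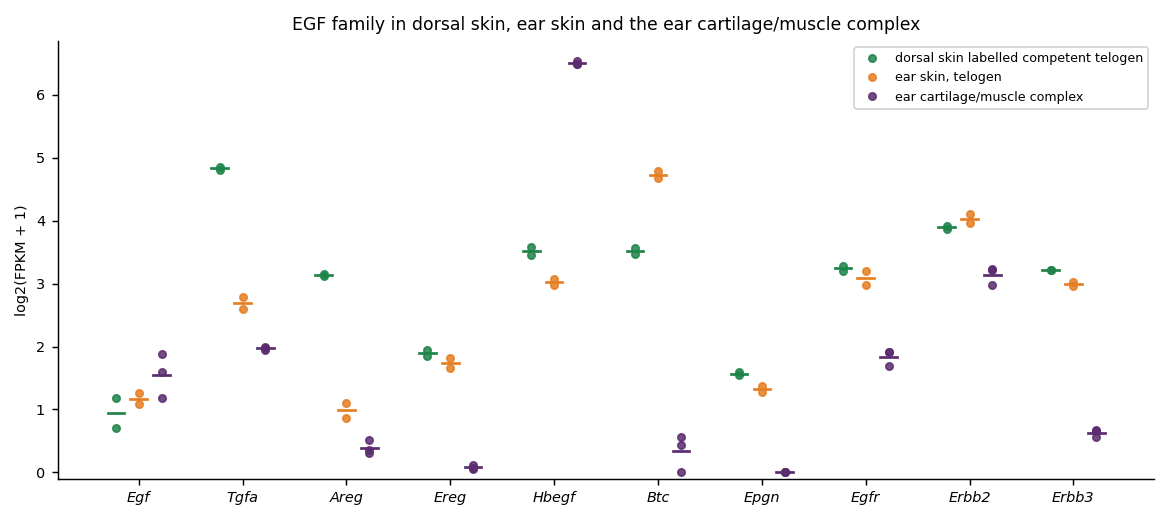
Levels of the 10 genes on the log2(FPKM + 1) scale (y axis) in the 7 libraries of the ear table; points are libraries and short lines are means of 2 dorsal skin, 2 ear skin and 3 cartilage/muscle complex libraries. Hbegf was higher in the complex than in both skins, while the other ligands except Egf and all 3 receptors were lower there.

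The second table compared the tissues of the ear with dorsal skin. Its 3 comparisons share libraries and are not independent. Ear skin expressed basal keratinocyte markers (6196 to 6854 FPKM in sum), and the complex expressed cartilage (1598 to 2015 FPKM) and skeletal muscle markers (15790 to 18320 FPKM), with basal keratinocyte markers at 25.7 to 27.4 FPKM and Krt14 at no more than 0.8 FPKM. Against the dorsal libraries labelled competent telogen, 1 gene was higher in ear skin, Btc (44.7% of all genes were higher), and 3 were lower, Tgfa, Areg and Hbegf (14.6% were lower). Tgfa was 5.87 and 5.06 FPKM in ear and 26.97 and 28.0 FPKM in dorsal skin (log2 difference -2.14, SE 0.09, adjusted p = 8.47e-06). Areg was 1.14 and 0.83 FPKM in ear and 7.67 and 7.87 FPKM in dorsal skin (log2 difference -2.15, SE 0.12, adjusted p = 3.33e-05). Hbegf was 6.87 and 7.44 FPKM in ear and 9.94 to 11 FPKM in dorsal skin (log2 difference -0.49, adjusted p = 0.00173). The median gene was 0.33 higher in ear skin. Marker sums of other cells differed as well, with inner root sheath at 302.8 against 22010 FPKM in dorsal skin, hair matrix and shaft at 44.3 against 6779 FPKM, suprabasal keratinocyte at 5051 against 623.1 FPKM and fibroblast at 9045 against 1062 FPKM, and their part in these differences was not tested.

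Because the dorsal libraries of this comparison resemble chin late anagen, the comparison was repeated with dorsal refractory telogen. The inner root sheath sum of that group, given above, was also far over that of telogen ear skin, and its part was not tested. Tgfa (log2 difference -2.94, adjusted p = 2.6e-06), Areg (log2 difference -2.34, adjusted p = 4.47e-05) and Hbegf (log2 difference -1.42, adjusted p = 1.85e-05) were again lower in ear skin, and Ereg, Epgn, Egfr and Erbb3 were now called lower. Btc turned its direction. It was 26.55 and 24.6 FPKM in ear skin, above the 10.88 and 10.1 FPKM of the labelled competent telogen (log2 difference 1.21, SE 0.19, adjusted p = 0.00205) but below the 41.23 and 36.48 FPKM of refractory telogen (log2 difference -0.58, SE 0.19, adjusted p = 0.0392). With a pseudocount of 0.1 the first of these was not called (adjusted p = 0.219).

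In the cartilage/muscle complex 1 gene was higher than in dorsal skin, Hbegf (42.8% of all genes were higher), and 8 were lower (28.3% were lower), namely all but Hbegf and Egf. Against ear skin Hbegf was again the 1 gene that was higher (28.0% of all genes), and the same 8 genes were lower (38.5%). Hbegf was 91.4, 88.41 and 88.41 FPKM in the complex, more than in any skin library, with a log2 difference of 2.98 from dorsal (SE 0.07, adjusted p = 2.43e-07) and 3.47 from ear skin (SE 0.07, adjusted p = 1.56e-07). It made up 94.1% of the ligand sum there. Epgn was listed at 0 in all 3 libraries, Ereg was at 0.08, 0.04 and 0.05 FPKM, and Btc at 0.36, 0 and 0.47 FPKM. Egf, at 2.03, 2.68 and 1.27 FPKM, was not called against ear skin, at 1.4 and 1.12 FPKM. Erbb3 was 0.48, 0.59 and 0.57 FPKM against 7.13 and 6.81 FPKM in ear skin (log2 difference -2.37, SE 0.08, adjusted p = 1.37e-06), and Egfr was 2.77, 2.22 and 2.77 FPKM against 8.2 and 6.86 FPKM (log2 difference -1.25, SE 0.11, adjusted p = 0.000134). Erbb2 kept most of the receptor sum, 71.3% as the mean of 3 libraries, at 8.31, 8.35 and 6.85 FPKM, against 16.19 and 14.51 FPKM in ear skin (log2 difference -0.89, SE 0.10, adjusted p = 0.000392).

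Beside Hbegf, the early response genes that ERK signalling is known to induce were high in the complex. Of 10 such transcription factors and response genes, 10 were higher in the complex than in dorsal skin (42.8% of all genes) and 9 were higher than in ear skin (28.0% of all genes), with none lower, and the median log2 difference from dorsal skin was 2.94 against 0.24 over all genes. Fos, a partner in AP-1, was at 3856 ± 345 FPKM in the complex (SD, n = 3), while dorsal skin had 36.0 ± 0.73 FPKM (SD, n = 2, log2 difference 6.70, adjusted p = 1.44e-08). ERK activity was not measured. The complex and the skins differed in cell types, as given above, and the part of this in these levels was not tested. Of 15 feedback inhibitors of Egfr signalling, 9 were higher and 5 lower than in dorsal skin, where 42.8% and 28.3% of all genes were (median log2 difference 0.35, all genes 0.24). Zfp36, an mRNA decay factor, was at 1103 FPKM against 52.5 FPKM (log2 difference 4.37, adjusted p = 9.77e-09) and Lrig1, which promotes receptor degradation, was lower (log2 difference -1.78, adjusted p = 0.00237). Against ear skin 8 of the 15 were higher and 3 lower (28.0% and 38.5% of all genes). Ear skin had 3 higher and 5 lower than dorsal skin (44.7% and 14.6% of all genes).

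The rest of the pathway was read by lists of genes. Of 7 genes that cut or traffic the ligand precursors, 4 were higher in ear than in dorsal skin and none lower (44.7% and 14.6% of all genes, median log2 difference 0.44, all genes 0.33), with Rhbdf1, an iRhom, at 45.4 ± 2.74 and 13.2 ± 0.78 FPKM (SD, n = 2 each, log2 difference 1.71, adjusted p = 0.000355). In the complex 6 of the 7 were lower than in ear skin (38.5% of all genes, median -0.87, all genes -0.11), including Adam10, a sheddase, with a mean of 4.98 ± 0.745 (n = 3) beside 23.9 ± 0.87 FPKM (SD, n = 2, adjusted p = 1.2e-05). Of 18 adaptors and ERK cascade genes, 8 were higher and 4 lower in ear than in dorsal skin, near the 44.7% of all genes that were higher (median 0.22, all genes 0.33). Of the neuregulins, Nrg4, a ligand of Erbb4, was higher in ear skin, at 11.51 ± 0.27 against 2.88 ± 0.26 FPKM (SD, n = 2 each, log2 difference 1.69, adjusted p = 0.0034).

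From catagen to refractory telogen, 7 of the 10 ERK response genes rose in chin (30.5% of all genes), 2 in ventral (14.9%) and 9 in dorsal skin (19.1%), and none fell, with medians of 0.51, 0.13 and 0.99 against 0.09, -0.03 and 0 over all genes. Fos rose in chin from 38.2 ± 2.98 to 272 ± 74.3 FPKM (SD, n = 3 each, adjusted p = 5.68e-16) and in ventral skin from 42.3 ± 3.43 to 158 ± 8.67 FPKM (SD, n = 2 each, adjusted p = 2.1e-10). Of the 15 feedback inhibitors, 10 rose and 1 fell in chin (30.5% and 17.5% of all genes), with a median of 0.50, and 2 rose in ventral skin, near the 14.9% of all genes, with a median of 0.03. In dorsal skin 6 rose and 4 fell (19.1% and 24.5% of all genes), with a median of 0.10. Lrig1 went there from 15.01 ± 1.10 to 51.6 ± 3.45 FPKM (SD, n = 2 each, adjusted p = 2.62e-07). Dorsal catagen, a doubted group, had the lowest basal keratinocyte marker sum of the skin groups, as given above. The part of this in the dorsal changes was not tested. Nrg4 rose in chin skin from 1.63 ± 0.43 to 7.45 ± 0.70 FPKM (SD, n = 3 each, adjusted p = 3.17e-08) and in ventral skin from 1.43 ± 0.65 to 5.71 ± 0.93 FPKM (SD, n = 2 each, adjusted p = 1.92e-05), while Nrg1 fell in chin, ventral and dorsal skin. In dorsal skin the mean sum of Erbb4 and all neuregulins was 3.065 FPKM in catagen and 2.7 FPKM in refractory telogen. Nrg4 was thus lower in dorsal refractory telogen than in that stage of chin and ventral skin.

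Among 13019 tested genes whose group means spanned at least 1 on the log2 scale, the nearest in pattern to each gene over the 18 skin groups are given as a description. Btc was nearest to Wfdc21, Il18 and Tprg (r = 0.98 each), Hbegf to Ank (r = 0.95), Tle2 (r = 0.94) and Atp6v1c2 (r = 0.92), and Tgfa to Shb (r = 0.94), Upp1 (r = 0.93) and Mitf (r = 0.91). Erbb2 was nearest to Ankzf1 (r = 0.93), Tmem63b (r = 0.91) and Plscr3 (r = 0.91), and Erbb3 to Tmx3 (r = 0.90), Rictor (r = 0.87) and Zmym2 (r = 0.85). Weaker likeness was found for Epgn, nearest to Ttk (r = 0.86), Megf9 (r = 0.84) and Flg (r = 0.82), for Areg, nearest to Grtp1 (r = 0.84), Samd5 (r = 0.79) and Bmp8a (r = 0.78), for Ereg, nearest to Ifitm6 (r = 0.84), Gjb5 (r = 0.84) and Gm12606 (r = 0.83), and for Egfr, nearest to Fnbp1l (r = 0.79), Gm5857 (r = 0.77) and Usp24 (r = 0.77).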

How the data were processed

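Paired-end full-length cDNA libraries (SMART-seq2, which does not mark strand) of mouse skin and ear were aligned by the authors to mm10 with GENCODE vM8 and quantified with RSEM 1.2.25, and the authors deposited FPKM per gene with 2 decimals. The study states that samples were corrected for batch effects and names no batches. Groups were taken from the sample labels. The 10 genes, the pathway and marker lists and the tests were chosen with earlier results of these data known. From each list, up to 2 genes per direction with the largest called change could be named, and for each of the 10 genes the 3 with the highest Pearson correlation over the 18 group means, among genes spanning at least 1 log2 unit. Values were fitted as log2(FPKM + 1) with limma 3.58.1 in R 4.3.3, letting the prior variance follow expression, the 43 skin libraries as 18 groups and the 7 ear table libraries as 3 groups, and p-values were adjusted by Benjamini-Hochberg over 21257 and 19299 genes. A count model was not used, since the values are not counts. Depth was estimated from the steps of low FPKM values of 26543 genes with 1 transcript in GENCODE vM21. The fits were tested on simulated data. Columns of other samples were not found. Promoter windows come from RefSeq and positions from GENCODE vM21, both on GRCm38. Pseudocount, filter, scaling, library and group alternatives were tried.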

Additional observations from a re-analysis of the deposited data

Results flagged for a closer look

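Each of the 10 genes had a stage profile that was unlike between body domains, by an interaction F-test in limma. The adjusted p was 4.864e-09 for Epgn, 1.187e-07 for Tgfa, 4.041e-07 for Btc, 1.237e-06 for Erbb2, 1.429e-06 for Areg, 9.494e-06 for Ereg, 0.00075 for Egfr, 0.003493 for Egf, 0.00395 for Erbb3 and 0.004039 for Hbegf. Such an interaction was called for 73.3% of all genes tested, so that the count of 10 is not particular to the family. Without ventral early anagen the adjusted p of Areg was 0.0167 and that of Hbegf 0.035, and without dorsal competent telogen that of Epgn was 3.77e-05.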

How the results depend on the processing

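Of 390 contrasts of the 10 genes, 147 were called, and 90 of these kept their call under every alternative and every library left out. The cause of the lost calls was not tested. The number differing among domains at mid anagen was 3, and 5 with a minimum of 5 FPKM and after rescaling to TPM. In fits on 1 stage alone it was 4 at catagen and 2 at refractory telogen. Without the chin late anagen, ventral early anagen or dorsal catagen libraries it was 0 at that stage, and without dorsal competent telogen 4, with fewer domains compared. Changes between stages then numbered 13 in dorsal skin without competent telogen, 16 without catagen and 16 in ventral skin without early anagen, since fewer steps remained. Ear against dorsal skin had 8 differing genes, not 4, under the median of ratios, quantile normalization and dorsal refractory telogen. Leaving out each library in turn gave 2 to 6 at mid anagen, 2 to 5 at late anagen and 3 to 9 at refractory telogen. Called differences that turned were Egfr in dorsal early anagen (-0.0262 by median of ratios, -0.054 by quantiles), Erbb2 between dorsal and ventral competent telogen (0.0142 by quantiles) and Btc in ear skin (-0.58 with dorsal refractory telogen). Replicate numbers did not pair libraries (median correlation 0.02 over 327 pairs of the same number), and with the replicate block 124 of 125 called skin contrasts kept their call, with 4 genes at mid anagen and 8 at refractory telogen differing among domains. The numbers of the ear skin columns differ from those of the sample titles, so that no block was fitted there. The groups of 2 libraries limit every within-group spread.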
